A study of Homo sapiens with 12 samples.

Results

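Processed pseudogenes of 13 abundantly expressed genes were followed: copies of HMGB1, HMGN2, NPM1, PTMA, KRT8, KRT18, HNRNPA1, EEF1A1, PPIA, GAPDH, TPT1, FTH1 and ACTB. A gene was a member if its symbol was the family name, a P and a number, and if its read counts summed to 50 or more over the 12 libraries. HMGB1P24 was left out. The annotation held 593 such symbols among the 58780 gene IDs of the files, of which 201 had no count, 205 had 1 to 9 counts, 93 had 10 to 49 counts and 93 were members. Members were thus chosen by their summed counts over all groups, so a copy present mainly in a single group could only enter through that group. The copies just inside the limit were FTH1P11 with 50 counts, HNRNPA1P14 with 51 and KRT18P15 with 54, and those just outside were NPM1P37 with 46 and PPIAP72 and GAPDHP22 with 45 each. In the current annotation, 91 members were processed pseudogenes, FTH1P19 was an unprocessed pseudogene and HMGB1P1 was listed as protein coding.

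A processed pseudogene is a DNA copy of a spliced mRNA that the LINE-1 reverse transcription machinery inserted elsewhere in the genome. Such copies lack the introns and the promoter of the parent gene, and genes with abundant mRNA in the germ line, including those for cytoskeletal, ribosomal, glycolytic and chromatin proteins, left many of them. A copy that lies in an intron of another gene on the same strand is transcribed as a piece of that gene's precursor RNA, which splicing normally removes. The scaffold attachment factor B proteins SAFB1, SAFB2 and SLTM are related nuclear proteins that bind DNA and RNA, and purine-rich sequences such as GAAGAA are known binding motifs of the family.

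The cells were Flp-In T-REx HEK293, a human embryonic kidney line with a single integration site for transgenes, and all groups were this same line. Control cells received a negative control siRNA. SAFB1 KD and SLTM KD cells received siRNA against SAFB1 or SLTM, filled up with the control siRNA to the total amount used in the triple KD, and triple KD cells received siRNAs against SAFB1, SAFB2 and SLTM together. Poly(A) RNA was sequenced from 3 cultures per group, described as biological replicates, and a knockdown of SAFB2 alone is not analysed here.

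Library totals were 62104421 to 75533510 counts in the control, 56856228 to 67842955 in SAFB1 KD, 58070400 to 62227480 in SLTM KD and 57001123 to 69495905 in triple KD. Levels are given as CPM, counts per 1000000 of the normalised library total. SAFB, the gene for SAFB1, had a mean of 232 CPM in the control, 45.3 CPM in SAFB1 KD and 38.2 CPM in triple KD, SLTM had 116, 20.5 and 25.01 CPM in control, SLTM KD and triple KD, and SAFB2 had 126 CPM in control and 29.1 CPM in triple KD but 209 CPM in SAFB1 KD. All 6 HEK293 marker genes were at 1 CPM or more, and summed leukocyte and squamous markers reached at most 0.168 CPM in any of the 12 libraries. The colon list, of whose 4 genes only CDX2 was at 1 CPM or more, summed to 27.5 to 33.4 CPM, and the fibroblast list to 13.6 to 15.3 CPM. RNA per cell and the number of cells cannot be told apart in such bulk samples.

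In the triple KD, 24 of the 93 copies were called higher and 3 lower than in control (edgeR quasi-likelihood test, adjusted p under 0.05, Benjamini-Hochberg over all 26688 genes tested). Among all genes tested, 19.4% were called higher and 20.9% lower, and among 1064 other processed pseudogenes with 50 or more counts the shares were 18.8% and 4.98%. The number of higher calls among the copies was thus not far from the background. In a test against a 2-fold increase, 12 copies passed, beside 0.543% of all genes and 5.73% of the other processed pseudogenes. The median log2 fold change was 0.17 over the members, 0.12 over the other processed pseudogenes and -0.00 over all genes tested. Because members were picked on total counts with results of these data known, these shares are descriptions of the set. Of the 8 members with fewer than 15 counts in the 3 control libraries together, 4 were called higher.

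The families were unequal. Copies of the keratin genes KRT8 and KRT18, which encode the intermediate filament pair of simple epithelia, were called higher in 11 of 14 cases, those of FTH1, the ferritin heavy chain that stores iron, in 4 of 9, and all other copies together in 9 of 70. The median log2 fold change was 2.43 for the 8 KRT8 copies, 1.79 for the 6 KRT18 copies and 0.74 for the 9 FTH1 copies, and between -0.22 and 0.63 for the other 10 families. Summed over its copies, the KRT8 family went from 6.76 ± 0.646 CPM in control to 20.1 ± 0.635 CPM in triple KD (SD, n = 3), which is 297% of control, and the KRT18 family reached 346%, the FTH1 family 239% and the 2 ACTB copies 203% of control. The summed levels of the remaining 9 families were at 94.4 to 120% of control.

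**Figure D1:**
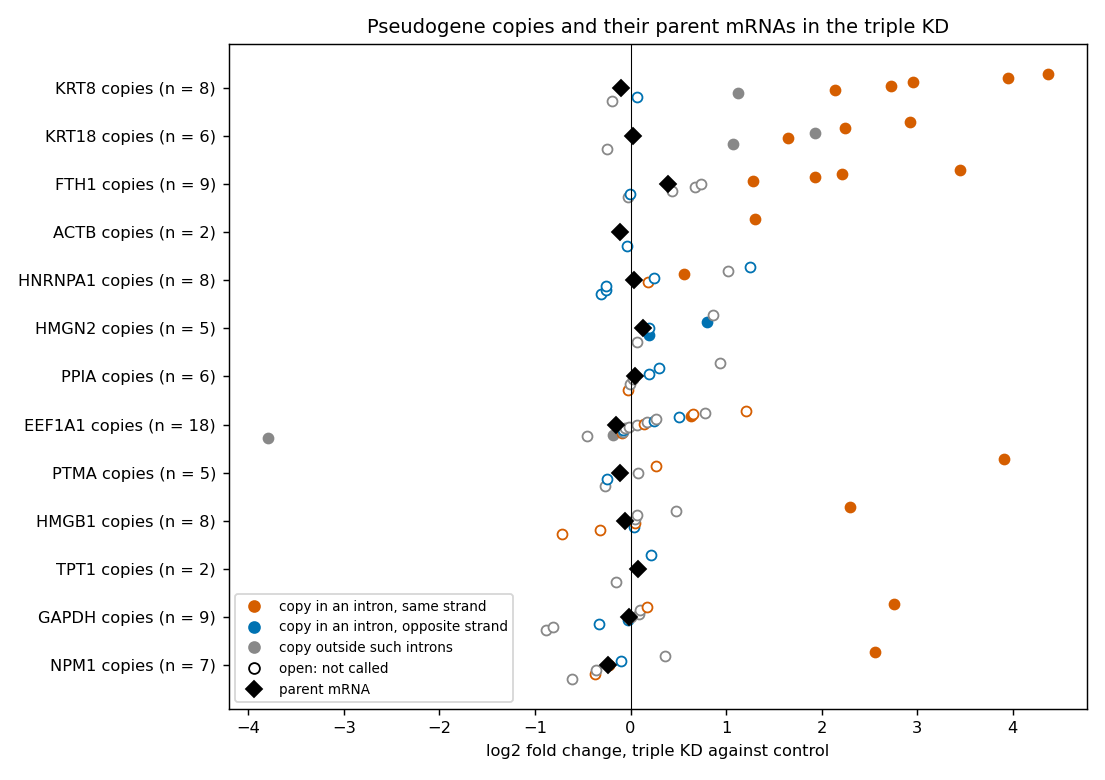
Log2 fold change of each of the 93 copies in triple KD against control (horizontal axis), by parent gene. Circles are copies, coloured by position and filled where called, and black diamonds are the parent mRNAs, which sit between -0.24 and 0.40 while filled copies reach 4.38.

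The calls were also unequal by position relative to other genes. Of the 32 copies that lie wholly in an intron of a coding or long noncoding gene on the same strand, 19 were called higher and 1 lower, with a median log2 fold change of 1.29. Of the 22 copies in an intron on the opposite strand, 2 were called higher, and of the 39 copies outside such introns 3 were higher and 2 lower, with medians of 0.06 and 0.06. Among the other processed pseudogenes, 118 of 329 same-strand copies were called higher (median 0.44), beside 15 of 200 on the opposite strand and 67 of 535 outside introns. All 8 keratin copies in same-strand introns were called higher, against 11 of 24 same-strand copies of the other genes. KRT18P15 is among the 8 and PTMAP1 among the 11, and both were members only through their triple KD counts. All 3 copies that were called higher without lying in a same-strand or opposite-strand intron were also keratin copies, out of 5, whereas edgeR, DESeq2 and limma-voom called 0 of the 34 other copies outside introns higher, and 0 had an unadjusted p under 0.05 with a rise. Of these 3 keratin copies, only 38.7% of the KRT8P12 locus and 10.2% of the KRT18P59 locus aligned to the parent mRNA, against 99.8% for KRT18P4. Which part of each locus the reads came from was not tested. Whether keratin copies differ from other copies at equal position was not tested.

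The KRT8 copies had the highest median log2 fold change of the 13 families, although a larger share of the KRT18 copies was called. Over the aligned bases the identity to KRT8 mRNA was 93.8% for KRT8P33, 90.1% for KRT8P46, 92.1% for KRT8P36, 89.8% for KRT8P39, 78.5% for KRT8P52 and 95.1% for KRT8P45, which was not called.

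KRT8P33, in an intron of the centrosomal gene CEP120, was at 0.319, 0.282 and 0.212 CPM in the 3 control libraries, at 0.506, 0.505 and 0.514 CPM in SAFB1 KD, at 0.289, 0.285 and 0.309 CPM in SLTM KD and at 4.27, 4.09 and 4.18 CPM in triple KD. All triple KD libraries lay far above the rest, and the log2 fold change to control was 3.95 ± 0.16 (SE, adjusted p = 6.62e-31), a 15.5-fold rise. KRT8P52, in an intron of the transcription factor gene CARF, had 0.0479, 0.0403 and 0.0132 CPM in control and 0.841, 0.808 and 0.521 CPM in triple KD (log2 fold change 4.38 ± 0.47, adjusted p = 3.5e-12). It was the copy with the largest fitted rise, from a control level of few counts, and the groups did not overlap.

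KRT8P46, in an intron of MANBA, the gene of lysosomal beta-mannosidase, rose from 0.559, 0.363 and 0.318 CPM to 2.38, 2.90 and 2.76 CPM (log2 fold change 2.72 ± 0.18, adjusted p = 9.03e-21). KRT8P39, in an intron of the nuclear pore gene NUP107, rose from 0.223, 0.148 and 0.238 CPM to 1.86, 1.40 and 1.51 CPM (2.96 ± 0.22, adjusted p = 7.6e-18). KRT8P36, in an intron of the cilium gene DZIP1L, rose from 0.495, 0.295 and 0.199 CPM to 1.37, 1.41 and 1.48 CPM (2.14 ± 0.22, adjusted p = 1.29e-12). In each of these 3 copies the lowest triple KD library was above the highest control library.

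KRT8P12 was the most abundant KRT8 copy and lies outside introns of coding or long noncoding genes, with the nearest upstream gene on its strand, SMC4, 130492 bases away. It was at 3.61, 3.33 and 3.23 CPM in control, 4.64, 4.59 and 4.98 CPM in SAFB1 KD, 2.84, 3.25 and 3.37 CPM in SLTM KD and 6.72, 7.87 and 7.40 CPM in triple KD, so SAFB1 KD lay between control and triple KD with no overlap on either side. Its log2 fold change in triple KD was 1.12 ± 0.08 (adjusted p = 6.69e-19). Only 38.7% of its annotated locus aligned to KRT8 mRNA, at 86.2% identity, and it held 43.2% of the counts of the KRT8 family. Without KRT8P12 the summed KRT8 copies had means of 3.37, 4.60 and 12.8 CPM in control, SAFB1 KD and triple KD. The 2 remaining copies, KRT8P3 on the strand opposite to ASPH and KRT8P45 outside introns, had log2 fold changes of 0.07 and -0.19 and were not called.

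**Figure D2:**
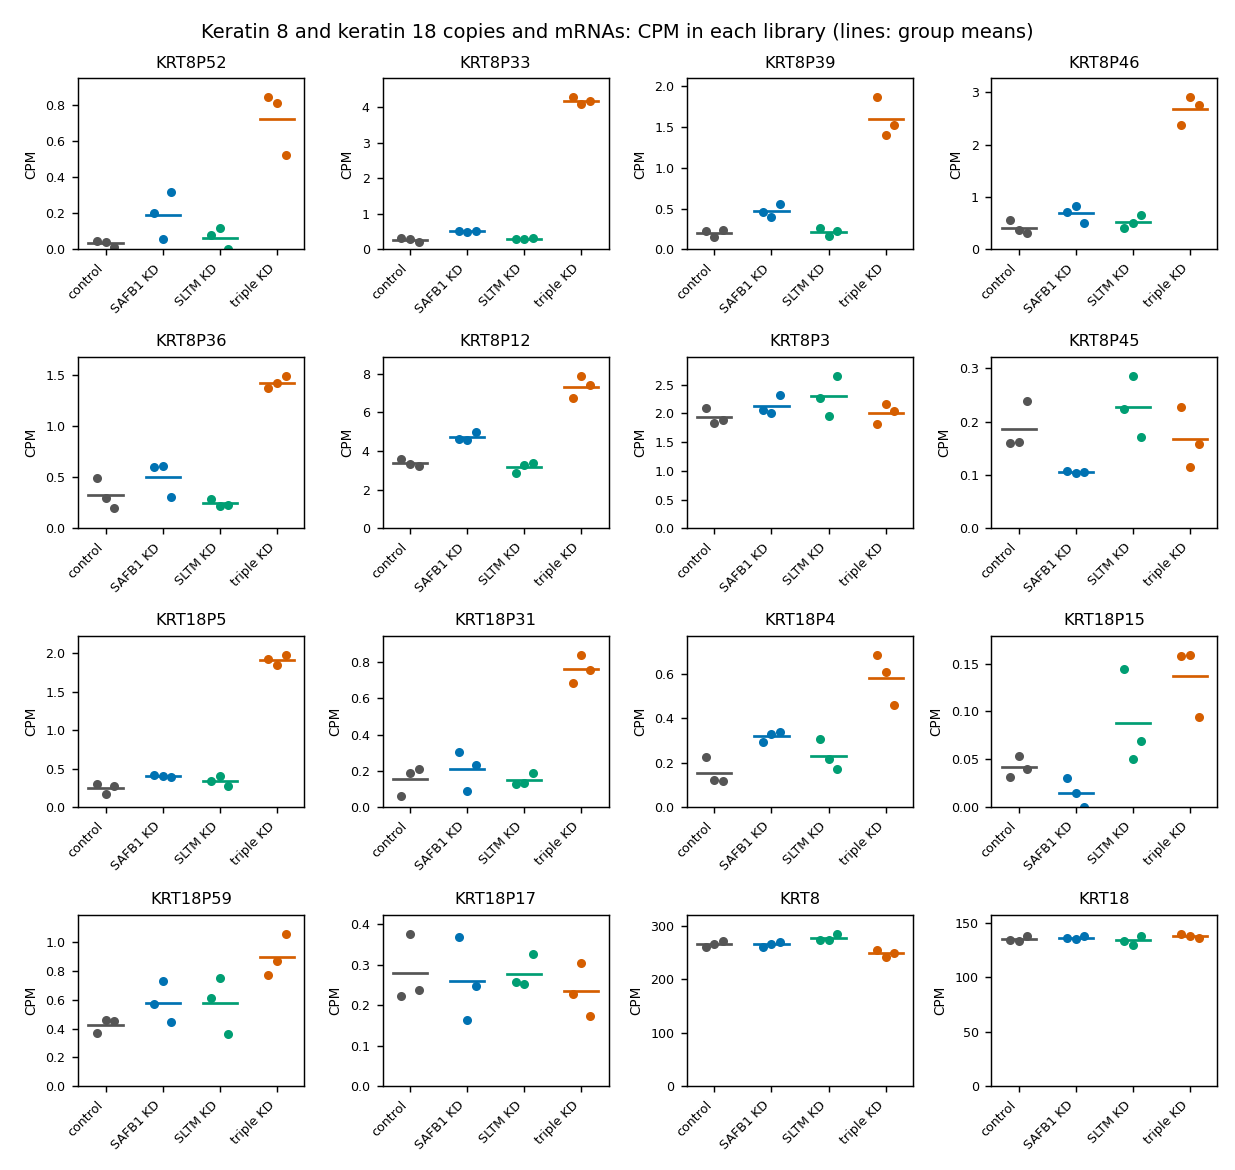
CPM (vertical axis, from 0, own scale per panel) of the 14 keratin copies and of KRT8 and KRT18 mRNA in each of the 12 libraries, by group, with lines at the group means. Of the copies, 11 were called higher in triple KD than in control, beside 19.4% of all genes tested and 18.8% of the other processed pseudogenes. KRT8 and KRT18 mRNA stay near 266 and 135 CPM in control and 248 and 138 CPM in triple KD.

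Among the KRT18 copies, KRT18P5 in an intron of the ubiquitin ligase adaptor gene KLHL22 was at 0.303, 0.175 and 0.278 CPM in control and at 1.93, 1.85 and 1.97 CPM in triple KD (log2 fold change 2.93 ± 0.20, adjusted p = 1.05e-19). In the current annotation it overlaps an exon of a KLHL22 transcript on the same strand, so part of its count may come from that exon. KRT18P31, in an intron of the cohesin loader gene NIPBL, went from 0.0638, 0.188 and 0.212 CPM to 0.683, 0.837 and 0.757 CPM (2.25 ± 0.31, adjusted p = 6.2e-09). Both had separate control and triple KD libraries.

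KRT18P4 and KRT18P59 rose without lying in an intron. KRT18P4 starts 2859 bases after the end of RNF114 on the same strand and had 0.223, 0.121 and 0.119 CPM in control, 0.291, 0.327 and 0.337 CPM in SAFB1 KD and 0.683, 0.606 and 0.458 CPM in triple KD (triple KD 1.93 ± 0.31, adjusted p = 2.71e-07). KRT18P59, whose annotated locus spans 13621 bases, went from 0.367, 0.457 and 0.450 CPM to 0.770, 0.866 and 1.06 CPM (1.07 ± 0.22, adjusted p = 4.88e-05). Of this locus, 10.2% aligned to KRT18 mRNA, at 83.9% identity. KRT18P15, in an intron of CMTM8 and with 54 counts in all, was called at a log2 fold change of 1.65, and was a member only through its triple KD counts. KRT18P17, outside introns, had -0.25 and was not called.

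The keratin mRNAs did not follow their copies. KRT8 mRNA was at 266 ± 5.13 CPM in control and 248 ± 6.27 CPM in triple KD (SD, n = 3; log2 fold change -0.10 ± 0.02, adjusted p = 0.000105), and KRT18 mRNA at 135 ± 2.34 and 138 ± 1.65 CPM (0.03 ± 0.02, adjusted p = 0.338). Per kilobase of annotated exon, KRT8P33 rose from a level of 0.190 to 2.94 CPM per kb. KRT8 stood at 38.6 CPM per kb of annotated exon in control, or 149 CPM per kb of its canonical mRNA. The copies thus remained small against the parent. KRT19, a related keratin, fell by 0.43 on the log2 scale.

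Of the 9 FTH1 copies, the 4 in same-strand introns were called higher. The bases 4 to 123 of the FTH1 coding sequence are shown with 3 of them and with FTH1P20, the copy with most counts, which lies opposite to the long noncoding gene SCHLAP1 and was not called. The windows are at chr11:77734904-77735023 (minus strand), chr3:72929045-72929164 (plus strand), chr2:27393245-27393364 (minus strand) and chr2:180873292-180873411 (minus strand), and capitals mark differences from FTH1.
FTH1: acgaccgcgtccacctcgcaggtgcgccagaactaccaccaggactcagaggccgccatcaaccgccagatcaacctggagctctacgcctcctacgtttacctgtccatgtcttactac
FTH1P16: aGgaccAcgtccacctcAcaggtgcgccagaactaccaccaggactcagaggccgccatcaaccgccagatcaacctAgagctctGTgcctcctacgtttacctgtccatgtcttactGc
FTH1P23: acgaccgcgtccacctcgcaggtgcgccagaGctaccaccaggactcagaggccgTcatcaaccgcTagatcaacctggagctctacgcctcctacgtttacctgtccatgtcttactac
FTH1P3: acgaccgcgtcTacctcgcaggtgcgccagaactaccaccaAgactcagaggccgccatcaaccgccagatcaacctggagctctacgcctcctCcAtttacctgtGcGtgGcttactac
FTH1P20: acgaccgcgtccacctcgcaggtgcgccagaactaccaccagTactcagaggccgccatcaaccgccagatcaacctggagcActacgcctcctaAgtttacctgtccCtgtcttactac
FTH1P20 carried 4 mismatches here, FTH1P23 carried 3, and FTH1P16 and FTH1P3 carried 7 each, so copies that rose lay on both sides of the copy that was not called. FTH1P16, in an intron of the chromatin remodelling gene RSF1, was at 0.128, 0.148 and 0.146 CPM in control, 0.353, 0.431 and 0.213 CPM in SAFB1 KD, 0.481, 0.302 and 0.258 CPM in SLTM KD and 1.72, 1.46 and 1.51 CPM in triple KD. All 3 knockdowns were above control without overlap and all were called, with log2 fold changes of 1.25 ± 0.33, 1.30 ± 0.33 and 3.45 ± 0.25 (adjusted p = 0.00758, 0.0054 and 7.77e-19).

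FTH1P23, in an intron of GXYLT2, rose from 0.591, 0.416 and 0.397 CPM to 1.23, 1.15 and 0.994 CPM (1.28 ± 0.21, adjusted p = 6.13e-07). FTH1P20 stayed at 0.798, 0.765 and 0.702 CPM in control and 0.823, 0.678 and 0.757 CPM in triple KD, with overlapping groups. FTH1P3 in PPM1G and FTH1P19 were called with log2 fold changes of 1.93 and 2.21 at levels below 0.5 CPM, while the other 4 copies had between -0.03 and 0.74. The identity of FTH1P19 to FTH1 was 74.1%, and its host ENSG00000250349 had 0 counts over the 12 libraries. Here the parent moved too: FTH1 mRNA rose from 470 ± 32.3 to 619 ± 9.03 CPM (0.40 ± 0.02, adjusted p = 2.99e-22).

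In the other families single copies stood out. PTMAP1, a copy of the gene for prothymosin alpha, an acidic nuclear protein, lies in an intron of ATAT1, the tubulin acetyltransferase gene, and is shown beside PTMA and 2 copies that were not called. The first 120 coding bases of PTMA are matched by chr6:30633632-30633744 (plus strand), chr12:9240212-9240331 (minus strand) and chr5:118973796-118973915 (plus strand), with differences from PTMA in capitals.
PTMA: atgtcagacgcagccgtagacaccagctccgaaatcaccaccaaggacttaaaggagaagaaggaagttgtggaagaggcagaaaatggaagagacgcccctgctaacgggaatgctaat
PTMAP1: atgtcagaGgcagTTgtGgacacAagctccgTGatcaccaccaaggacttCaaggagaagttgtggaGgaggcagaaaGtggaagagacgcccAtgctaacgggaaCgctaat
PTMAP4: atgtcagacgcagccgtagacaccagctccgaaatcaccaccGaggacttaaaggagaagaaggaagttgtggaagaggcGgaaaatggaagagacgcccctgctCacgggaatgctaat
PTMAP2: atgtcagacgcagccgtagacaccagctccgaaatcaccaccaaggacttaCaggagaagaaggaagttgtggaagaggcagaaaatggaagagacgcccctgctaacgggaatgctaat
PTMAP1 carried 12 mismatches and lacked 7 bases in this stretch, against 3 and 1 mismatches in PTMAP4 and PTMAP2. It was at 0.0798, 0.0806 and 0.0530 CPM in control, 0.0766, 0.0891 and 0.0887 CPM in SAFB1 KD, 0.0481, 0.0671 and 0.0860 CPM in SLTM KD and 1.21, 1.07 and 0.994 CPM in triple KD. Only the triple KD libraries stood apart, and the log2 fold change was 3.91 ± 0.31 (adjusted p = 4.55e-17), a 15.0-fold rise. PTMAP1 reached the limit of summed counts for members only through its triple KD counts. A copy with so few counts elsewhere and no rise would not have been in the set, so its rise is partly a result of the selection. PTMAP4, the copy with most counts, had 3.45 ± 0.340 CPM in control and 3.62 ± 0.334 CPM in triple KD (0.08 ± 0.10, adjusted p = 0.562), and PTMAP2 had a log2 fold change of -0.25.

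NPM1P9, a copy of the nucleolar chaperone gene NPM1, lies in an intron of the Fanconi anaemia gene FANCB and overlaps an exon of one of its transcripts. It rose from 0.479, 0.497 and 0.569 CPM in control to 1.32, 1.32 and 1.70 CPM in SAFB1 KD and 2.84, 3.45 and 2.87 CPM in triple KD, with 0.513, 0.671 and 0.567 CPM in SLTM KD. The SAFB1 KD libraries lay between control and triple KD, and the log2 fold changes were 1.47 ± 0.17 (adjusted p = 1.83e-09) and 2.56 ± 0.15 (adjusted p = 1.39e-22). GAPDHP43, a copy of the glycolytic enzyme gene GAPDH in an intron of GOLM2, rose from 0.0479, 0.121 and 0.0530 CPM to 0.490, 0.549 and 0.521 CPM (2.76 ± 0.37, adjusted p = 4.77e-09).

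The remaining copies called higher were HMGB1P19 in TBC1D31 (2.30), ACTBP7 in FRMD5 (1.30), HMGN2P4 opposite to SV2C (0.80), EEF1A1P19 in C5orf34 (0.63), HNRNPA1P16 in SRR (0.56), which overlaps an SRR exon on the same strand, and HMGN2P5 opposite to TJP1 (0.19), where the value in brackets is the log2 fold change. ACTBP7, the actin copy with most counts, was at 0.0958, 0.201 and 0.159 CPM in control and 0.385, 0.404 and 0.363 CPM in triple KD. Of the 6 copies of PPIA, the cyclophilin A gene, and the 2 copies of TPT1, a growth-related calcium-binding protein gene, edgeR, DESeq2 and limma-voom called 0, and 0 had an unadjusted p under 0.05. PPIAP22, with 8904 counts the main PPIA copy, had 11.8, 11.3 and 11.2 CPM in control and 11.8, 10.6 and 11.7 CPM in triple KD. The main copies of HNRNPA1, an RNA-binding protein gene, of GAPDH and of TPT1 were also not called, with log2 fold changes of -0.26 for HNRNPA1P10, 0.09 for GAPDHP1 and 0.21 for TPT1P9.

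In the triple KD, copies nearly identical to their parents had changes close to those of the parents. The 13 copies with 98% identity or more held 71.97% of all member counts, and their log2 fold changes in triple KD lay between -0.26 and 0.19. The change of copy minus that of parent had a median absolute value of 0.06 among these 13, of 0.22 among 26 copies of 95 to 98% identity, of 0.60 among 33 copies of 90 to 95% and of 1.04 among 21 copies under 90%. The median summed counts fell along the same order, at 3883, 346.5, 169 and 91 counts, so precision and identity changed together. Identity covers aligned bases only, and little of some loci under 95% aligned: 1.55% of HMGN2P46, 10.2% of KRT18P59, 17.1% of GAPDHP72 and 27.6% of HMGB1P1. The change of such a locus need not be that of its copied part. Of the stretches of 100 bases in these 13 copies, between 1.26% and 74.1% were identical to the parent mRNA, and reads placed there cannot be assigned to copy or parent by sequence. Reads with several best placements were not counted, and the share of parent reads among the counts of such copies was not tested.

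**Figure D3:**
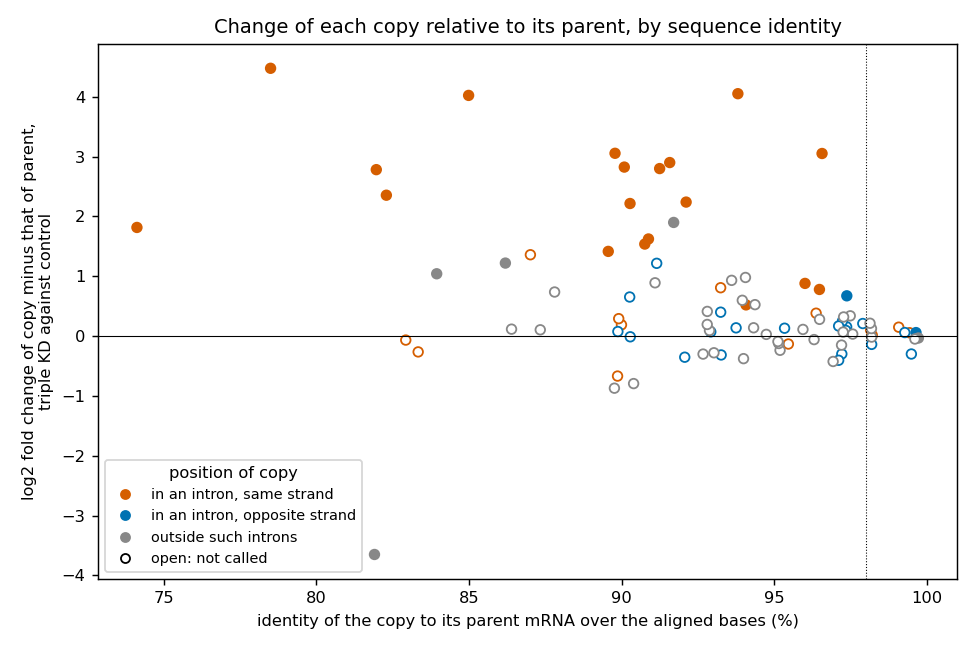
Identity of each copy to its parent mRNA over the aligned bases, in percent (horizontal axis). The vertical axis is the log2 fold change of the copy minus that of the parent in triple KD against control. The 93 copies are filled where called and coloured by position. Right of the dotted line at 98% the differences lie between -0.30 and 0.21, and toward lower identity they spread up to 4.47.

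The called decreases were small with a single exception. NPM1P27, in an intron of FAM172A, was at 27.2, 28.3 and 28.2 CPM in control and 22.9, 23.7 and 25.2 CPM in triple KD (log2 fold change -0.22 ± 0.04, adjusted p = 8.8e-06), beside -0.24 ± 0.02 for NPM1 mRNA. EEF1A1P5, the main copy of the translation elongation factor gene EEF1A1, was at 26.3, 27.1 and 26.8 CPM in control and 24.1, 21.9 and 24.9 CPM in triple KD (-0.18 ± 0.04, adjusted p = 0.000165), beside -0.15 ± 0.01 for EEF1A1 mRNA. The identities of these 2 copies to their parents were 98.2% and 99.7%. EEF1A1P34, chosen for mention after its values were seen, had 21 counts in the control libraries together and 1 in the triple KD libraries, which is 5.34% of the control level with an exact 95% counting interval of 0.129% to 33.2%, and its identity to EEF1A1 was only 81.9%.

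The parent mRNAs changed little by comparison. In triple KD, 4 of the 13 were called higher, namely FTH1 (0.40), HMGN2 (0.13), TPT1 (0.08) and PPIA (0.04), and 6 were called lower, namely NPM1 (-0.24), EEF1A1 (-0.15), ACTB (-0.11), PTMA (-0.11), KRT8 (-0.10) and HMGB1 (-0.05). KRT18, GAPDH and HNRNPA1 were not called by edgeR, with 0.03, -0.02 and 0.04. HNRNPA1 was called higher with DESeq2 (adjusted p = 0.0089), with limma-voom (adjusted p = 0.000703) and under 9 further settings, GAPDH was called lower with limma-voom (adjusted p = 0.0425) and KRT18 higher with upper-quartile scaling (0.06, adjusted p = 0.0247). Of 19 coding relatives of the parents, 8 were called higher and 6 lower, from HMGB2 at 0.47 to KRT19 at -0.43. Over all genes tested, 19.4% were called higher and 20.9% lower. The parent mRNAs have high counts, and small changes passed the test. Leaving out control replicate 2 (-0.05) or replicate 2 or 3 of the triple KD (-0.05 each) ended the call of HMGB1, which was also not made with DESeq2 (adjusted p = 0.0574), with DESeq2 size factors in edgeR (0.0562), with filterByExpr (0.0676) or with upper-quartile scaling (-0.02, adjusted p = 0.453). Leaving out replicate 1 (0.03) or 2 (0.04) of the control or replicate 3 of the triple KD (0.03) ended the call of PPIA, as did fitting without a filter (0.03).

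The genes that hold the copies did not rise with them in most cases. Among the hosts of the 19 same-strand copies that were called higher, 12 were called lower, 4 higher and 2 not, and 1 was not tested, beside 20.9% lower and 19.4% higher over all genes tested. The host KLHL22 fell by 1.07 on the log2 scale (adjusted p = 1.14e-27) while KRT18P5 rose, MANBA fell by 1.02 (adjusted p = 8.56e-24) with KRT8P46, SRR by 0.80 with HNRNPA1P16 and CARF by 0.63 with KRT8P52. CEP120, ATAT1 and RSF1 fell by 0.24, 0.33 and 0.13, and the hosts called higher were DZIP1L (0.26), NIPBL (0.15), PPM1G (0.06) and NUP107 (0.05), each by far less than its copy. The call of NUP107 ended without replicate 1 (0.04) or 2 (0.05) of the control, replicate 2 of SAFB1 KD (0.05) or replicate 2 or 3 of the triple KD (0.05 each), or without a filter (0.04). Among the hosts of the 12 same-strand copies that were not called, 2 were higher, 2 lower, 6 not called and 2 not tested. The hosts not tested were ENSG00000250349 with 0 counts over the 12 libraries, THSD4-AS1 with 2 and CLVS1 with 6. Host counts are those over annotated exons. In the current annotation, KRT18P5, NPM1P9 and HNRNPA1P16 overlap an exon of their hosts KLHL22, FANCB and SRR on the same strand. Reads of copy and host may not be fully separate there.

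**Figure D4:**
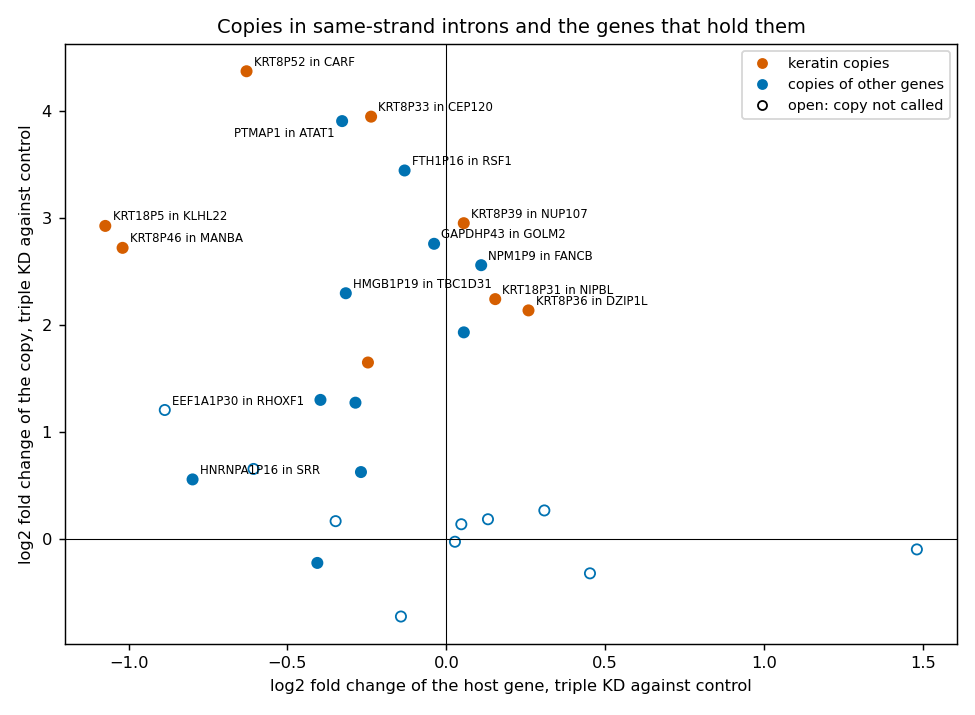
Log2 fold change of the host gene (horizontal axis) against that of the copy in its same-strand intron (vertical axis) in triple KD against control, for 29 copies with a tested host, filled where the copy was called. The copies of the upper left part rose while their hosts fell, with KRT18P5 in KLHL22 at -1.07 and 2.93.

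Knockdown of SAFB1 alone moved fewer copies. In SAFB1 KD, 9 copies were called higher and 0 lower by edgeR, against 5.04% and 4.62% of all genes and 3.57% and 0.846% of the other processed pseudogenes. DESeq2 and limma-voom also called 0 lower, and 4 fell at an unadjusted p under 0.05. The 9 were KRT8P52 (log2 fold change 2.43), NPM1P9 (1.47), FTH1P16 (1.25), KRT8P39 (1.20), KRT18P4 (1.06), KRT8P33 (0.92), KRT8P46 (0.78), KRT8P12 (0.48) and HMGB1P6 (0.16). The KRT8 family thus had 5 of its 8 copies called, and its summed level reached 138% of control, while edgeR and DESeq2 called 0 of the 13 parent mRNAs, limma-voom called 3 and 4 had an unadjusted p under 0.05. KRT8P39, for example, had 0.460, 0.401 and 0.550 CPM in SAFB1 KD, above its 3 control libraries and below its 3 triple KD libraries. Without SAFB1 KD replicate 2 or without control replicate 3, only 5 copies were called higher. KRT8P33 was not called without control replicate 3 (0.75), and HMGB1P6 was not called without any of the 3 control libraries or without SAFB1 KD replicate 2 or 3 (0.14 to 0.16).

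In SLTM KD, 4 of the 5 copies that fell were EEF1A1 copies. Over the 93 copies, 2 were called higher and 5 lower, against 3.6% and 5.65% of all genes and 1.97% and 2.63% of the other processed pseudogenes. The 5 were EEF1A1P11, EEF1A1P13, EEF1A1P9 and EEF1A1P6 and the NPM1 copy NPM1P24. To show how close these EEF1A1 copies are to their parent, bases 100 to 219 of the EEF1A1 coding sequence are given with EEF1A1P5, which was not called in SLTM KD, with 2 copies that fell and with EEF1A1P34. The windows are at chr9:133019585-133019704 (plus strand), chr5:14653108-14653227 (minus strand), chr4:105484791-105484910 (plus strand) and chr20:18783571-18783690 (minus strand), with differences in capitals.
EEF1A1: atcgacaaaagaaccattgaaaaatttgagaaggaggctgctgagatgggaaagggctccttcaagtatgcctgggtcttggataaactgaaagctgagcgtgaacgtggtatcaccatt
EEF1A1P5: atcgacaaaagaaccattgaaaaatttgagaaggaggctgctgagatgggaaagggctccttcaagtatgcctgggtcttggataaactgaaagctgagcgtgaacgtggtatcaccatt
EEF1A1P13: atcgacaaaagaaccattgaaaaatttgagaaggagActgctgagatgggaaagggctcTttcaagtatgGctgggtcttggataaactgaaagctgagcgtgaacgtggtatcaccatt
EEF1A1P9: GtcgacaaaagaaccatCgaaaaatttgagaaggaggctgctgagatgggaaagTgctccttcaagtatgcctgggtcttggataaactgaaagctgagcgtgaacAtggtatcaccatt
EEF1A1P34: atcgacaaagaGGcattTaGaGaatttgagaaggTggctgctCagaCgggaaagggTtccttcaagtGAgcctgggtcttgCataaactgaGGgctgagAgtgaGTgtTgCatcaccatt
EEF1A1P5 had no difference from EEF1A1 in this stretch, EEF1A1P13 had 3 mismatches and EEF1A1P9 had 4. EEF1A1P34 had 18 mismatches and 2 bases inserted or missing. Over whole alignments the identities were 98.1% for EEF1A1P13, 97.2% for EEF1A1P9, 97.3% for EEF1A1P11 and 99.4% for EEF1A1P6.

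EEF1A1P13 was at 6.30, 5.60 and 5.20 CPM in control, 4.92, 4.75 and 4.89 CPM in SAFB1 KD, 3.37, 4.06 and 3.16 CPM in SLTM KD and 6.25, 5.34 and 6.28 CPM in triple KD. The SLTM KD libraries were the lowest of the 12, the triple KD libraries lay among those of control, and the log2 fold changes were -0.69 ± 0.09 in SLTM KD (adjusted p = 2.62e-08) and 0.06 ± 0.08 in triple KD (adjusted p = 0.58). EEF1A1P9 went from 1.02, 1.38 and 1.10 CPM to 0.834, 0.821 and 0.670 CPM in SLTM KD (-0.59 ± 0.17, adjusted p = 0.0145), and EEF1A1P11 from 1.09, 0.671 and 0.861 to 0.577, 0.620 and 0.344 CPM (-0.74 ± 0.21, adjusted p = 0.0148). Neither was called without SLTM KD replicate 3 (-0.51 for EEF1A1P9, -0.53 for EEF1A1P11), nor EEF1A1P9 without control replicate 2 (-0.46) or EEF1A1P11 without control replicate 1 (-0.57).

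EEF1A1P6, with 4.42, 4.54 and 4.25 CPM in control and 3.19, 3.54 and 3.25 CPM in SLTM KD, fell by 0.40 ± 0.09 on the log2 scale (adjusted p = 0.00062). Among all 18 EEF1A1 copies, 15 had an estimate below 0 and 8 had all SLTM KD libraries below all control libraries, with a median of -0.42 beside 0.00 over all genes tested. Over all genes tested, 48.4% had an estimate below 0 and 11.8% had SLTM KD libraries wholly below those of control, and over the other processed pseudogenes the shares were 56.9% and 10.6%. Other families also leaned lower, with 7 of 9 GAPDH copies below 0 and 4 of them not overlapping, and 6 of 7 NPM1 copies below 0 and 3 not overlapping. The summed level in SLTM KD was 83.9% of control for the EEF1A1 copies, 84.2% for the GAPDH copies and 64.8% for the 2 TPT1 copies. The TPT1 copies, neither of them called, summed to 0.594, 0.302 and 0.275 CPM in SLTM KD and 0.591, 0.712 and 0.503 CPM in control. KRT18 copies were at 127% of control, FTH1 copies at 118%, HMGB1 copies at 114% and the remaining families at 86.8 to 104%. Differences between families were not tested. EEF1A1 mRNA did not differ detectably, at 6116 ± 91.5 CPM in control and 6170 ± 79.9 CPM in SLTM KD (0.01 ± 0.01, adjusted p = 0.728). Compared directly, 10 of the 18 copies were called higher and 1 lower in triple KD than in SLTM KD. In this comparison, 17.5% of all genes tested were called higher and 18.8% lower.

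**Figure D5:**
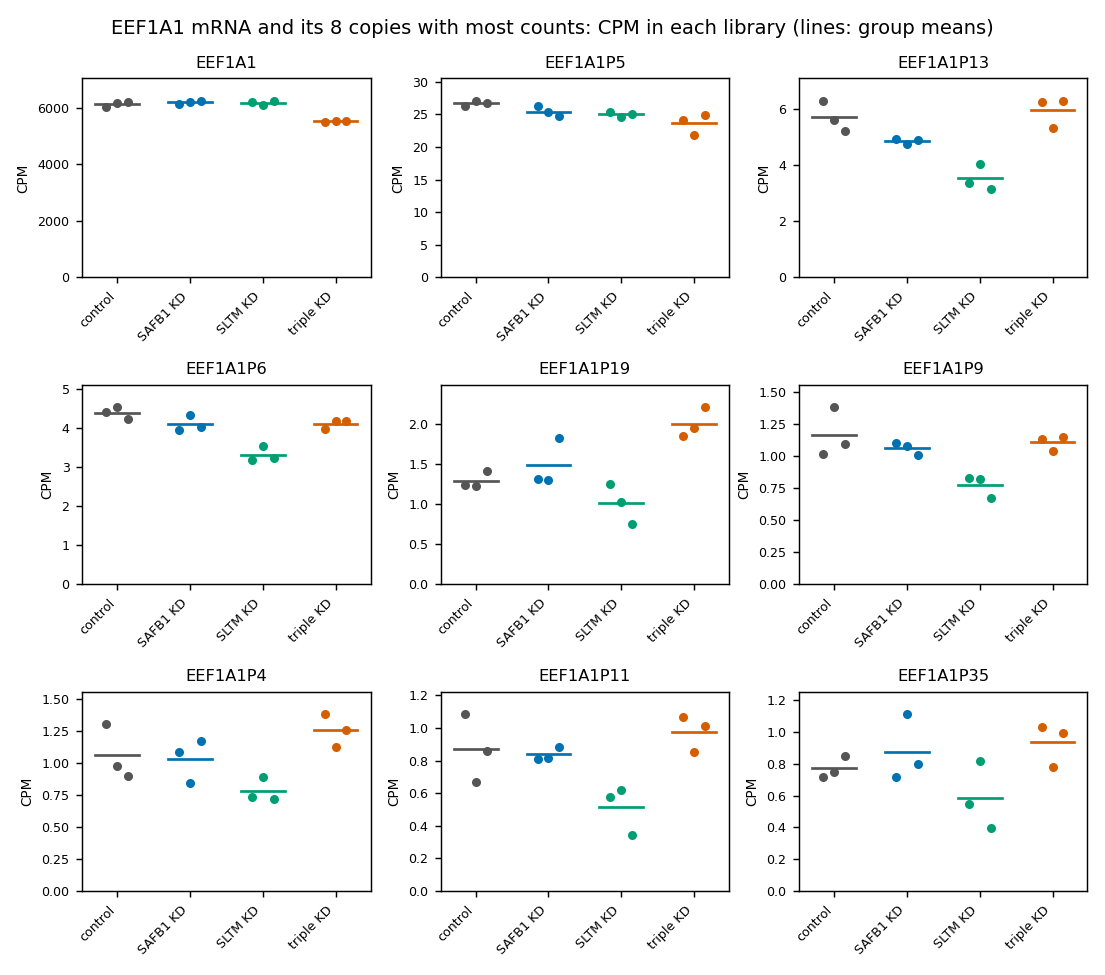
CPM (vertical axis, from 0, own scale per panel) of EEF1A1 mRNA and of its 8 copies with most counts in each of the 12 libraries, by group, with lines at the group means. EEF1A1P13 lies between 3.16 and 4.06 CPM in SLTM KD and at 5.20 CPM or more in the control and triple KD libraries, whereas the mRNA differs little between control and SLTM KD.

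NPM1P24, opposite to OIT3, fell from 0.623, 0.698 and 0.689 CPM to 0.401, 0.486 and 0.327 CPM in SLTM KD (-0.73 ± 0.23, adjusted p = 0.0305). It was not called without SLTM KD replicate 1 (-0.72) or 3 (-0.60) or without control replicate 2 (-0.70) or 3 (-0.71). The 2 copies called higher were FTH1P16, described above, and HMGB1P6, the main copy of the DNA-bending protein gene HMGB1. HMGB1P6 was at 12.7, 12.6 and 12.9 CPM in control, 13.9, 14.7 and 14.2 CPM in SAFB1 KD, 15.4, 14.1 and 15.2 CPM in SLTM KD and 13.4, 12.8 and 13.5 CPM in triple KD, with log2 fold changes of 0.16 ± 0.05, 0.22 ± 0.05 and 0.05 ± 0.05 (adjusted p = 0.0246, 0.000993 and 0.485). HMGB1 mRNA went the other way in SLTM KD, at -0.09 ± 0.02 (adjusted p = 0.000332). FTH1 (0.20) and HMGN2 (0.08) were the parents called higher. Without SLTM KD replicate 3 or without control replicate 2 the number of copies called lower was 3, and without SLTM KD replicate 1 the number called higher was 1. Of all genes called in SLTM KD, 38.9% were higher, and 57.5% with upper-quartile scaling, under which 2 copies were called higher and 5 lower, as before.

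The triple KD was also compared directly with the single knockdowns, since SAFB1 KD cells still had SAFB2 and SLTM. Against SAFB1 KD, 24 copies were called higher and 4 lower in triple KD, where 16.2% and 18.6% of all genes were called, and against SLTM KD 38 were higher and 3 lower, where 17.5% and 18.8% were called. KRT8P33 was higher in triple KD than in SAFB1 KD by 3.03 ± 0.14 and PTMAP1 by 3.65 ± 0.31 on the log2 scale (adjusted p = 4.77e-27 and 8.77e-16). Of the 14 keratin copies, 11 were called higher than in SAFB1 KD. The copies called lower than in SAFB1 KD were NPM1P27, EEF1A1P5, EEF1A1P34 and HNRNPA1P10, and those lower than in SLTM KD were NPM1P27, EEF1A1P34 and HMGB1P6. Without SAFB1 KD replicate 2, the 4 became 2. These comparisons use the same triple KD libraries as those with control.

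The base composition of the annotated loci of the copies was described as well. GAAGAA, searched on the transcribed strand over the whole annotated span of each locus, was found in 54 of 93 members (58.1%). The share was 67.3% among the 1064 other processed pseudogenes. Little of some spans aligned to the parent mRNA, such as 10.2% for KRT18P59 and 1.55% for HMGN2P46. GAAGAA was present in 16 of the 24 copies called higher in triple KD and in 37 of the 66 not called. KRT8 copies held a median of 0.61 motifs per kb and PTMA copies 11.6 per kb, and KRT8P33, KRT8P39 and KRT8P52 held none, while PTMAP2 and PTMAP4, which were not called, held 4 each. Over the 32 copies in same-strand introns, Spearman's rho with the log2 fold change was -0.18 for motifs per kb, -0.38 for A content and 0.55 for GC content. Keratin copies had a median GC content of 56.2% (range 42.7 to 58.6%), against 47.7% over all members (range 40.8 to 61.6%), and without them rho for GC was 0.43 over 24 copies. Copies of 1 family share their sequence, so these points are not independent.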

How the data were processed

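Poly(A) RNA-seq was analysed in 12 libraries, 3 per group. Per the labels and the study's methods, the authors trimmed adapters, aligned reads to GRCh38 with STAR 2.7.9a and deposited raw counts per gene of uniquely placed, strand-matched reads. The deposited counts were fitted over all libraries with edgeR 4.0.16 (TMM factors, quasi-likelihood, genes with 10 or more summed counts), and p-values were adjusted over all 26688 genes. CPM are counts over the TMM-adjusted library total. Symbols, introns and exon overlaps came from GENCODE release 44, which matched 58207 of 58780 IDs (99.0%). The authors counted reads on an earlier GENCODE release, so exon overlaps given here need not be those of the counting. Identity to the parent was measured with blastn 2.17.0 against its canonical mRNA.

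The members and gene lists were chosen with earlier results of these data known. Called members at 0.5 CPM or more in either group with separate libraries were named by size of change (up to 15 higher and 8 lower in triple KD, 6 and 4 in each single KD), together with the main copy of each family, parents, hosts, called relatives and copies at the count limit. Other called copies and further values were named after they were seen. The fit was tested on simulated data in which only genes above a limit of mean counts were changed. Calls on copies with few counts were not examined by it. Alternatives used DESeq2 1.42.0, limma 3.58.1 voom, other scaling and filters, fewer libraries and a replicate block. Counts of a library limit precision by counting error, and the exact interval of EEF1A1P34 covers that only. The SE values come from the edgeR fit, which includes the spread between libraries.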

Additional observations from a re-analysis of the deposited data

How the results depend on the processing

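The 24 copies called higher and 3 called lower in triple KD ranged over 21 to 24 and 3 with DESeq2, limma-voom and the replicate block. When a change of more than 2-fold was tested, 12 higher and 0 lower calls were left in triple KD, 0 and 0 in SAFB1 KD, 0 and 0 in SLTM KD, 7 and 1 against SAFB1 KD and 11 and 0 against SLTM KD. DESeq2 called 5 copies higher in SAFB1 KD (4 of the 9 had no adjusted p) and 1 higher and 3 lower in SLTM KD (3 of the 7 had none). The number lower in SAFB1 KD was 1 without a filter, 2 with the replicate block and 1 when copies with 10 or more counts were members. Parents called in SAFB1 KD were 3 with limma-voom, 2 without a filter and 4 with the replicate block, and in SLTM KD 5 with limma-voom, without a filter or with upper-quartile scaling and 7 with the replicate block. With upper-quartile scaling GAPDH in triple KD was at 0.015 in place of -0.02. Leaving out single libraries gave 5 to 9 copies higher and 0 to 1 lower in SAFB1 KD, 1 to 2 higher and 3 to 7 lower in SLTM KD, 2 to 4 lower against SAFB1 KD and 0 to 1 parents in SAFB1 KD. For single genes, 1007 of 1057 values kept direction and call, 32 lost the call, 17 gained it and 1 turned. The cause of these changes was not tested.

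Replicate numbers paired the libraries weakly at most. Of 18 same-numbered pairs only 1 had a correlation of deviations over 0.1 (range -0.03 to 0.14), and pairs of different number ranged from -0.11 to 0.06. With the replicate block, 1847 of all genes were called higher and 1569 lower in SAFB1 KD, against 1345 and 1232 without it. A shared effect of replicate number was not tested, and the block is given only in this section as an alternative. Counting 89 members without exon overlap was an alternative chosen after seeing the data. Low counts limit most copies: the median member had 249 counts over 12 libraries.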
